A study of Mus musculus with 8 samples.

Results

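The 9 genes described here are *Duxf3*, *Gm5662*, *Sp110*, *Tcstv1*, *Tcstv3*, *Zfp352*, *Usp17la*, *Usp17lc* and *Tmem92*, which are known as transcripts of the mouse two-cell (2C) embryo or of the rare 2C-like cells of mESC cultures. They were picked by name among the 55385 genes of the count table for the size and order of their change across 3 groups of mESCs, so their levels, fold changes and calls are given as a description, with no p and no reading of the calls as evidence. The cells were R1 mESCs, an established male mouse embryonic stem cell line labelled as wild type, kept without feeder cells in N2B27 medium with 2i and Lif on coated plates. Every group, control included, was infected with lentivirus for 2 days and selected with puromycin for 3 days. The groups were shRNA1 (3 libraries) and shRNA2 (3 libraries), which target the 3′ UTR and the coding sequence of the splicing factor gene *Eftud2*, and nt-shRNA (2 libraries), which has no target. The labels call the replicates biological, and the comparisons of each shRNA with nt-shRNA share the same 2 control libraries.

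In the mouse embryo, the zygotic genome is first broadly transcribed at the two-cell stage. The homeodomain protein Dux, encoded by *Duxf3*, binds and switches on many genes of that stage, among them the *Zscan4* cluster, *Eif1a*-like genes, *Usp17l* deubiquitinases and *Tcstv* genes. In mESC cultures such transcripts are known to come mainly from a few cells that pass through a 2C-like state for a short time. RNA of whole cultures was measured here, so more cells in that state and more RNA per cell cannot be told apart.

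Depth was between 19569525 and 29871048 counts per library, so that 3 counts, taken as the floor, correspond to 0.1045 to 0.1481 CPM, the count after scaling every library to the same total with TMM normalisation. The targeted *Eftud2* was at 255.7 to 262.3 CPM with nt-shRNA, at 225.3 to 231.9 CPM with shRNA1 and at 198.2 to 234.7 CPM with shRNA2. Its log2 fold change of -0.18 with shRNA1 (SE 0.0678) did not pass the threshold (adjusted p = 0.0514, edgeR's quasi-likelihood test with Benjamini-Hochberg adjustment), and that of -0.29 with shRNA2 (SE 0.0678) did (adjusted p = 0.00122). With DESeq2 the change with shRNA1 passed (adjusted p = 0.0487), as it did with the replicate number as a block (adjusted p = 0.0206). By other measures, the paper reports a stronger fall of *Eftud2* RNA in qPCR and less EFTUD2 protein in western blots with either shRNA. Of 17445 genes tested, 13.8% were called higher and 17.1% lower with shRNA1 at an adjusted p under 0.05, against 27.2% and 28.7% with shRNA2, or 30.9% and 55.9% in either direction. The genes called with shRNA1 numbered 5388, and 2948 without nt-shRNA replicate 1, and scaling by library totals moved the share of higher calls from 44.7% to 70.5%.

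Between genes, levels can be compared only per length, here as mean CPM per kilobase of exon. Reads that aligned to more than 1 place were not counted, so this measure can understate genes that share sequence. The share of 100-base stretches found in other genes was 58.4% for *Gm5662* and 32.3% for *Usp17lc*. It was 24.2% for *Duxf3*, 21.9% for *Sp110* and at most 7.79% for the others. In the nt-shRNA group *Gm5662* was highest at 6.05 CPM per kilobase, followed by *Tmem92* at 3.92 and *Tcstv3* at 1.51. *Usp17lc* at 1.13 and *Usp17la* at 1.09 came next and overlapped in their libraries. *Zfp352* at 0.268 and *Duxf3* at 0.229 overlapped as well, and *Sp110*, at 0.112, was lowest of the 8 genes that passed the expression filter. *Usp17lc* stood above *Tcstv3* with shRNA1 (4.28 and 3.84) and with shRNA2 (2.91 and 2.61), with overlapping libraries in both groups. *Sp110* stood above *Duxf3* with shRNA1 (0.508 and 0.483), where their libraries overlapped, and with shRNA2 (1.02 and 0.176), while *Gm5662* remained highest at 28.5 with shRNA1 and 30.5 with shRNA2.

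**Figure D1:**
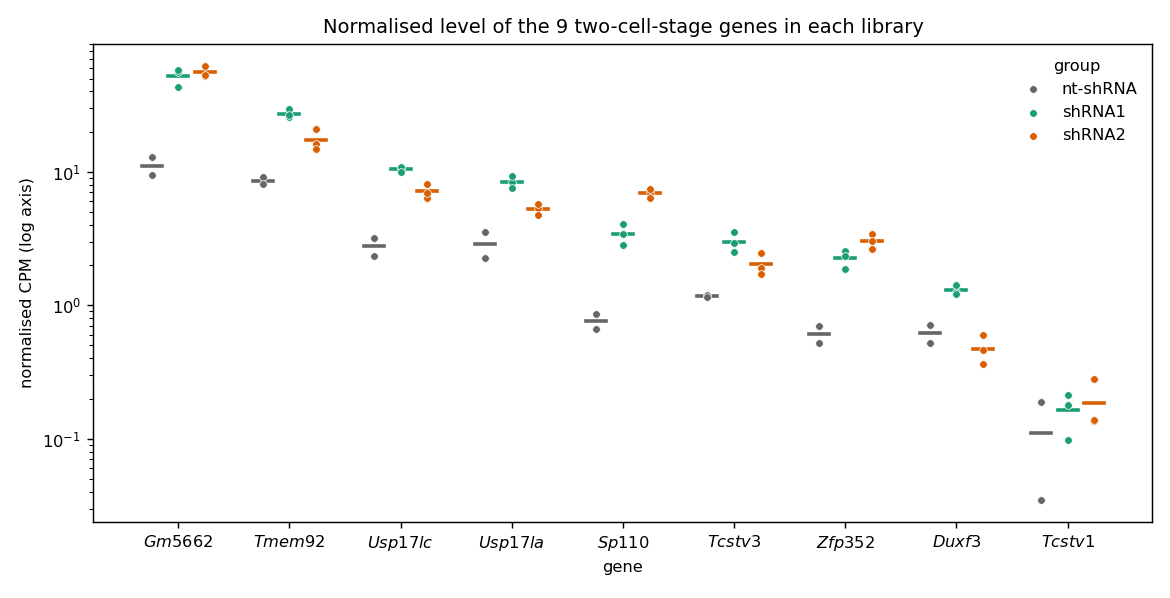
Normalised CPM (log axis) of the 9 two-cell-stage genes in every library, with points for libraries, bars for group means and colours for nt-shRNA (2 libraries), shRNA1 (3) and shRNA2 (3). The shRNA1 points lie above both control points for 8 genes and the shRNA2 points for 7, while those of *Duxf3* with shRNA2 and all of *Tcstv1* overlap the control.

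*Duxf3*, the gene for the Dux activator itself (chr10:58229979-58232675, GRCm38, 1 exon), was the only gene of the 9 whose mean was lower with shRNA2 than in the control. Its level was 0.712 and 0.523 CPM in the nt-shRNA libraries, 1.26, 1.43 and 1.21 CPM with shRNA1, and 0.465, 0.361 and 0.597 CPM with shRNA2. All shRNA1 libraries were above both controls, whereas the shRNA2 libraries overlapped the controls and were below every shRNA1 library. The log2 fold change was 1.07 (SE 0.296) with shRNA1, -0.37 (SE 0.355) with shRNA2 and -1.44 (SE 0.291) between the shRNAs. The value with shRNA2 ran from -0.14 without nt-shRNA replicate 1 to -0.59 without nt-shRNA replicate 2. The values rest on 34, 91 and 31 counts summed over the nt-shRNA, shRNA1 and shRNA2 libraries. Of the 100-base stretches of its transcript, 24.2% also occur in 3 other genes, led by *AW822073*, and reads from there that aligned to more than 1 place were not counted.

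*Sp110*, which encodes a nuclear body protein of the Sp100 family (chr1:85576899-85598817), showed the opposite order, with shRNA2 above shRNA1. It was at 0.862 and 0.662 CPM with nt-shRNA, 3.43, 4.10 and 2.82 CPM with shRNA1, and 6.98, 6.31 and 7.44 CPM with shRNA2. The 3 groups did not overlap. The log2 fold change was 2.16 (SE 0.241) with shRNA1 and 3.18 (SE 0.225) with shRNA2, which was the largest of the 9 genes with shRNA2, and shRNA2 was higher than shRNA1 by 1.02 (SE 0.158). Of the 100-base stretches of *Sp110*, 21.9% also occur in 7 other genes, led by *Gm16026*. *G530012D18Rik*, on the other strand, overlaps 5.78% of its exon bases, and strand was not used in counting, so the count is uncertain. *Zfp352*, a zinc finger gene of the two-cell embryo (chr4:90218820-90225702), had the same order at a smaller distance. It was at 0.525 and 0.697 CPM with nt-shRNA, 2.57, 2.32 and 1.85 CPM with shRNA1, and 2.65, 3.43 and 3.03 CPM with shRNA2. The lowest shRNA2 library was just above the highest shRNA1 library, and the log2 fold changes were 1.85 (SE 0.270), 2.30 (SE 0.261) and, between the shRNAs, 0.45 (SE 0.190).

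*Gm5662*, an *Eif1a*-like gene (chr12:88270640-88274500), was the most abundant of the 9 and about as high with either shRNA. It was at 12.8 and 9.44 CPM with nt-shRNA, 56.1, 58.0 and 43.3 CPM with shRNA1, and 52.6, 53.4 and 62.4 CPM with shRNA2. Each shRNA group was above the control, and the shRNA groups overlapped each other. The log2 fold change was 2.24 (SE 0.135) with shRNA1 and 2.34 (SE 0.135) with shRNA2, and the difference of 0.10 (SE 0.103) between the shRNAs turned to -0.02 without shRNA1 replicate 3. Since 58.4% of its 100-base stretches also occur in 12 other genes, led by *Gm2016* and *Gm8332*, its count is uncertain.

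*Usp17la* and *Usp17lc* encode deubiquitinases of a family that lies on chromosome 7 (chr7:104857009-104862667 and chr7:103415072-103419880), and both were highest with shRNA1. *Usp17la* was at 3.52 and 2.27 CPM with nt-shRNA, 8.43, 9.38 and 7.56 CPM with shRNA1, and 5.35, 4.74 and 5.74 CPM with shRNA2. *Usp17lc* was at 3.19 and 2.33 CPM with nt-shRNA, 10.7, 10.8 and 9.98 CPM with shRNA1, and 6.33, 6.90 and 8.17 CPM with shRNA2. For either gene the 3 groups did not overlap. The log2 fold changes of *Usp17la* were 1.55 (SE 0.180) with shRNA1, 0.87 (SE 0.188) with shRNA2 and -0.68 (SE 0.150) between the shRNAs, and those of *Usp17lc* were 1.93 (SE 0.165), 1.37 (SE 0.170) and -0.56 (SE 0.131). The value of *Usp17la* with shRNA2 ran from 0.58 without nt-shRNA replicate 2 to 1.21 without nt-shRNA replicate 1. *Usp17lc* shares 32.3% of its 100-base stretches with other genes, led by *Usp17ld*, and *Usp17la* shares 3.83%.

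*Tmem92*, which encodes a transmembrane protein (chr11:94777217-94782703), shares no 100-base stretch with another gene. It was at 9.11 and 8.05 CPM with nt-shRNA, 25.6, 29.6 and 26.7 CPM with shRNA1, and 16.0, 14.8 and 20.8 CPM with shRNA2. The 3 groups did not overlap, and the log2 fold changes were 1.67 (SE 0.132), 1.01 (SE 0.135) and, between the shRNAs, -0.66 (SE 0.110).

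*Tcstv3*, of a gene family named for its variable expression at the two-cell stage (chr13:120316878-120318178), was at 1.20 and 1.15 CPM with nt-shRNA, 2.93, 3.55 and 2.50 CPM with shRNA1, and 1.91, 1.71 and 2.48 CPM with shRNA2. The highest shRNA2 library came close to the lowest shRNA1 library, and the log2 fold changes were 1.33 (SE 0.236), 0.79 (SE 0.249) and -0.54 (SE 0.198). Its relative *Tcstv1* (chr13:119893388-119894785) had 5 and 1 counts in the nt-shRNA libraries, 4, 2 and 6 with shRNA1, and 6, 3 and 3 with shRNA2. The groups overlapped in every comparison, the level was near the floor and a difference was not detectable at this depth. *Tcstv1* alone did not pass the expression filter, and no fold is given.

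**Figure D2:**
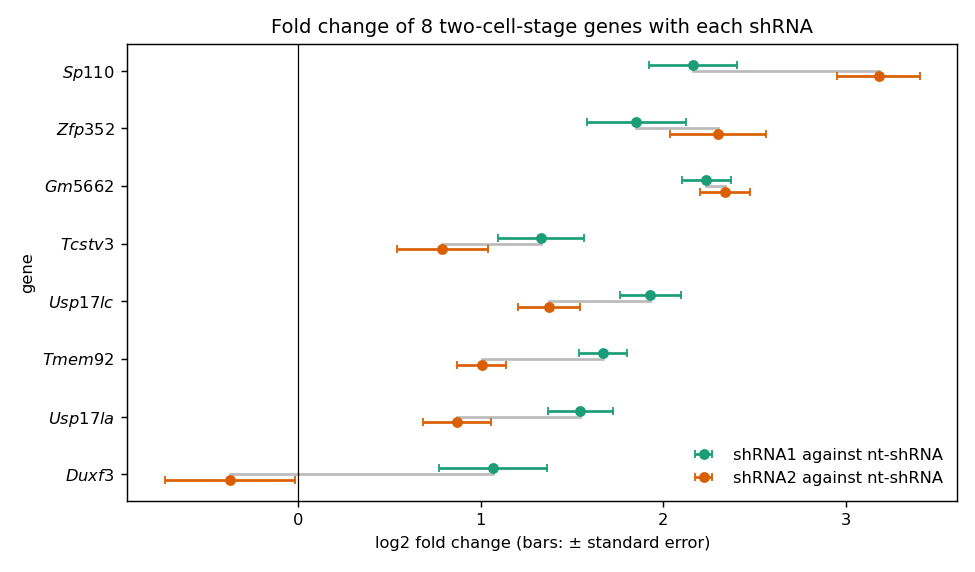
Log2 fold change (points, bars ± SE) of the 8 two-cell-stage genes that passed the expression filter, with shRNA1 (green) and shRNA2 (orange) against the same nt-shRNA libraries, ordered by the difference between the shRNAs. *Sp110*, *Zfp352* and *Gm5662* have the larger value with shRNA2, and the other 5 genes with shRNA1, with *Duxf3* below 0 with shRNA2.

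Over the 8 genes that passed the filter, the median log2 fold change was 1.76 with shRNA1, 1.19 with shRNA2 and -0.55 between the shRNAs, beside -0.007, 0.004 and -0.0008 over all genes tested. Since the genes were chosen on these same contrasts, the counts that follow describe them and nothing is read from their distance to the share of all genes. The 8 genes were all called higher with shRNA1, where 13.8% of all genes were, and 7 with shRNA2, where 27.2% were. With shRNA1 *Duxf3* lost its call with DESeq2 and without nt-shRNA replicate 2, and with shRNA2 *Tcstv3* lost its call without nt-shRNA replicate 2 or shRNA2 replicate 3. Between the shRNAs *Sp110* was called higher with shRNA2, where 16.9% of all genes were, and 5 of the 8 were called lower, where 18.7% were, of which *Tcstv3* lost its call with DESeq2 and without replicate 1 or 2 of either shRNA. Without overlap, 8 of the 9 genes were higher with shRNA1 than nt-shRNA (26.6% of all genes tested), 7 were higher with shRNA2 than nt-shRNA (35.4%), 2 were higher with shRNA2 than shRNA1 (23.6%) and 5 were lower (24.1%). None was lower than nt-shRNA without overlap, where 30.2% of all genes were with shRNA1 and 36% with shRNA2. By group means, 4 of the 8 genes ran from shRNA1 over shRNA2 to nt-shRNA, 3 from shRNA2 over shRNA1 to nt-shRNA, and *Duxf3* from shRNA1 over nt-shRNA to shRNA2.

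The libraries of 1 group differed from each other in a shared way. Within shRNA1, replicate 2 was highest for 7 of the 8 genes and replicate 3 lowest for 7, while over all tested genes these libraries were highest for 27.9% and lowest for 36.2%. Of 29 other 2C genes, described below, 17 were highest in replicate 2 and 25 lowest in replicate 3. Within shRNA2, replicate 3 was highest for 7 of the 8 genes and for 16 of the 29 others, against 35.4% of all genes. In the control, replicate 1 was above replicate 2 for 7 of the 8 genes, *Zfp352* being the exception, and for 21 of the 29 others, against 50.4% of all genes. Replicate 2 of shRNA1 was the shallowest library at 19569525 counts and replicate 3 the deepest of its group at 27501491, and the part of depth in this order was not tested.

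**Figure D3:**
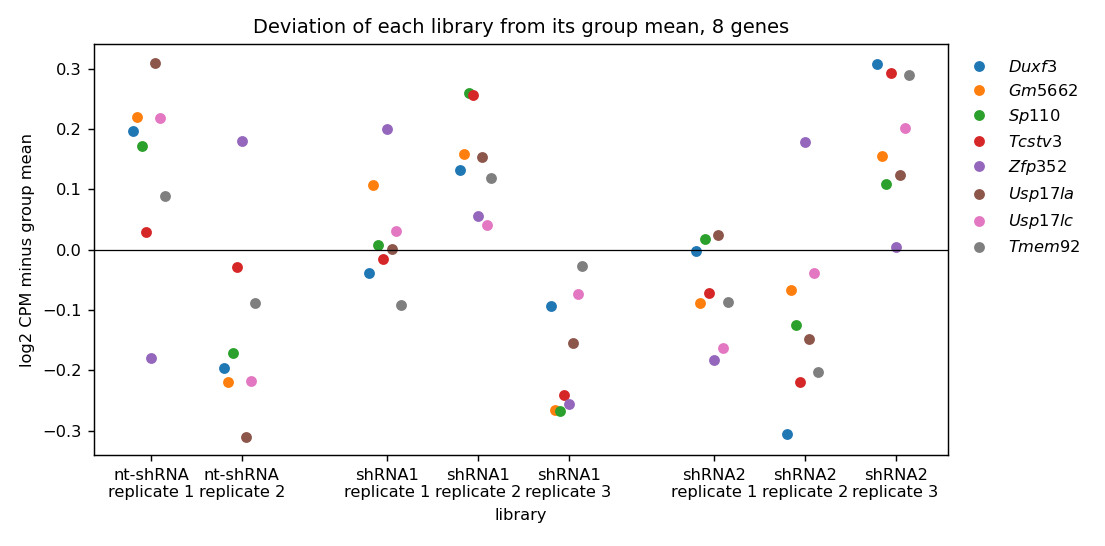
Deviation of each library from the mean of its group in log2 CPM, for the 8 two-cell-stage genes that passed the filter (colours), in the 2 nt-shRNA, 3 shRNA1 and 3 shRNA2 libraries. Most genes lie above 0 in nt-shRNA replicate 1, shRNA1 replicate 2 and shRNA2 replicate 3, and every gene lies below 0 in shRNA1 replicate 3.

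Across the 8 libraries the genes formed no single profile. Pearson's r of log2 CPM was 0.96 between *Sp110* and *Zfp352*, 0.98 between *Tmem92* and *Tcstv3* and 0.97 between *Usp17la* and *Usp17lc*, but -0.09 between *Sp110* and *Duxf3*. The libraries fall into 3 groups, so these values mostly restate the group means. To find the genes with the most similar profile, the 8 genes were standardised and averaged, and every other tested gene was ranked by its r with this mean over the 8 libraries. The 10 nearest genes, with r between 0.989 and 0.995, were *Zscan4-ps3*, *Gm5580*, *Zscan4d*, *Spz1*, *AC148019.3*, *Ctr9*, *Zscan4c*, *Gm5039*, *Usp17lb* and *Gm14742*. Of these, 3 belong to the *Zscan4* cluster, *Gm5039* is *Eif1a*-like, *Spz1* was among the other 2C genes listed and *Usp17lb* is a paralog of *Usp17la*. All 10 were highest with shRNA1 and lowest in the control. *Ctr9*, a subunit of the PAF1 elongation complex, was the most abundant and moved least, from 124.2 CPM with nt-shRNA to 171.6 with shRNA1 and 154.6 with shRNA2.

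Sequence before the start of transcription was looked up for the genes in RefSeq promoters of GRCm38.p6, which held 6 promoters of 5 of the 9 genes: *Duxf3*, *Sp110*, *Zfp352*, *Usp17la* and *Usp17lc*. The 250 bases before the start are shown for *Sp110* and *Zfp352*, the pair whose shRNA2 libraries all lay above the shRNA1 libraries, because they share a repeated string. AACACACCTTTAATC is the longest string that occurs at least 3 times in each of these 2 promoters, and its copies, those of its 12-base end ACACCTTTAATC on either strand, and TATAAG are in capitals. The first sequence is chr1:85603892-85604141, reverse strand, and the second chr4:90218570-90218819, forward strand.
Sp110: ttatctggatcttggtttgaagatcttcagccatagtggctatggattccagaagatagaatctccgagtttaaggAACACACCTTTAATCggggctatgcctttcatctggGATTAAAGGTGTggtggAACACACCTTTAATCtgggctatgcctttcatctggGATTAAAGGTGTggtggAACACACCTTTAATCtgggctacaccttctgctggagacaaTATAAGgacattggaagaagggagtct
Zfp352: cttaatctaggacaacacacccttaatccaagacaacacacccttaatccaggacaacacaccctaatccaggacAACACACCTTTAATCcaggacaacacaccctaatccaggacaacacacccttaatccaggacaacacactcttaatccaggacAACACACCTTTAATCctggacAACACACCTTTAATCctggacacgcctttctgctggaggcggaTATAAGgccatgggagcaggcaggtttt

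Counted from 250 bases before to 50 after the start, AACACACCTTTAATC occurred 3 times in either promoter, and 0.07% of the 32851 promoters of that length held it at least once on either strand. Its end ACACCTTTAATC occurred 5 times in *Sp110*, 2 of them on the other strand, and 3 times in *Zfp352*. It was in 0.164% of promoters at least once and in 17 (0.0517%) at least 3 times. Among these 17 was also the promoter of *Gm4340*, a 2C gene with the reverse order, whose log2 difference between shRNA2 and shRNA1 was -0.83 (SE 0.257, adjusted p = 0.0172), a call lost without shRNA1 replicate 1 (adjusted p = 0.0663), shRNA2 replicate 1 (0.0728) or shRNA2 replicate 2 (0.0738). The string was picked after both promoters had been read and was defined as being shared by them, so its presence there is no finding. The shorter forms CCTTTAATC (0.542% of promoters) and TTTAATC (3.27%), which lie within the longer strings, had no further match in these 2 promoters. TATAAG began 27 bases before the start in *Sp110* and 28 bases before it in *Zfp352*, and 7.43% of promoters held it. The *Sp110* start used here lies 5074 bases upstream of the start of the gene in the count table, and the other *Sp110* promoter held none of the strings. A match describes the letters only.

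The corresponding sequences of *Usp17la* and *Usp17lc*, which moved alike, are shown next because they are near copies, with 95.3% identity over 257 aligned bases of the promoters. They are chr7:104856766-104857015, forward strand, and chr7:103416446-103416695, forward strand, with TATAAA in capitals.
Usp17la: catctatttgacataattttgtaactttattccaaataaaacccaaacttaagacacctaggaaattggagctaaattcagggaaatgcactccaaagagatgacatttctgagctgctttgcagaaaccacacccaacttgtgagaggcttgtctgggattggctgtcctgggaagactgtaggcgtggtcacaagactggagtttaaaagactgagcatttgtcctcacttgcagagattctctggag
Usp17lc: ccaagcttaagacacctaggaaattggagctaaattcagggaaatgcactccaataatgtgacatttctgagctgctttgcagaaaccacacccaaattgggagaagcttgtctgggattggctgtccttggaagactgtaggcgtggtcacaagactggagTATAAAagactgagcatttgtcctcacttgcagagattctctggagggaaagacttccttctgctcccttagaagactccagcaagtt

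TATAAA was present in *Usp17lc* and in 13.6% of all promoters, and not in *Usp17la*. Promoters of their paralogs *Usp17lb* and *Usp17ld*, which held TATAAA as well, were 92.6% and 97.4% identical to that of *Usp17la*. The start of *Usp17lc* used here lies 1624 bases from that in the count table, and that of *Usp17la* 7 bases.

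In all, 6 strings are given here, each searched on both strands. Forms of the site bound by Dux proteins were searched as well and are not reported here.

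Other genes of the two-cell stage were followed in a list of 36, made of 6 *Zscan4* genes, 9 *Eif1a*-like genes and 21 others, of which 29 passed the filter. The list was chosen with earlier results of these data known, so its counts are given as a description. Some of the 29 passed only through the shRNA libraries, such as *Tdpoz4* (1 and 2 counts with nt-shRNA) and *Gm2056* (4 and 6). Such genes could hardly have been called lower. With shRNA1, 29 of 29 were called higher, and with shRNA2, 28 of 29 were called higher and none lower, beside 13.8% and 27.2% of all genes called higher. The exception was *Slc34a2*, at 0.0924 CPM in the control, which was called higher with shRNA2 without shRNA2 replicate 3 (adjusted p = 0.0123). Its call with shRNA1 was lost with DESeq2 (0.0542), without nt-shRNA replicate 2 (0.169) and without shRNA1 replicate 2 (0.0575). The median log2 fold change was 2.18 with shRNA1 and 1.63 with shRNA2. Between the shRNAs, 4 were called higher with shRNA2 and 11 lower, beside 16.9% and 18.7% of all genes, with a median of -0.37. These 15 calls became 9 without shRNA2 replicate 2. With 10 counts or more required in all libraries, 23 of the listed genes were tested, and 23 were called higher with each shRNA.

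The *Zscan4* genes, zinc finger genes tied to telomere upkeep in mESCs, were called lower with shRNA2 than shRNA1 in 6 of 6 cases, and in 4 of 6 when replicate 1 or 2 of either shRNA was left out. *Zscan4c* was at 2.64 ± 0.0854 CPM (SD, n = 2) in the control and rose to 18.5 ± 3.12 (n = 3) with shRNA1 and 12.2 ± 1.39 (n = 3) with shRNA2. Its log2 fold changes were 2.80 and 2.21, and those of *Zscan4d* were 2.74 and 2.20 and of *Zscan4f* 2.71 and 2.22. The *Eif1a*-like genes, relatives of a translation initiation factor gene, were called higher with each shRNA in 9 of 9 cases. Between the shRNAs only *Gm2075* was called, lower by 0.83 on the log2 scale (SE 0.253, adjusted p = 0.0154). This call was lost with DESeq2 (adjusted p = 0.0715) and without shRNA2 replicate 2 (0.0757), and its call with shRNA2 against nt-shRNA without nt-shRNA replicate 2 (0.103). *Gm5039*, at -0.33 (adjusted p = 0.0547), was called lower with the replicate block (0.0476) and under 7 other alternatives. Under other alternatives *BB287469* was also called lower (without shRNA1 replicate 3, 0.0385) and *Gm2016* higher (without a filter, 0.0484, and without shRNA1 replicate 1, 0.0348). *Gm2016* had log2 fold changes of 2.44 and 2.70, *Gm8300* of 2.37 and 2.39 and *Gm2035* of 2.26 and 2.38. All of these share 100-base stretches with *Gm5662*, so their counts are uncertain as well and may not be independent of it. Shared stretches were not computed for the listed genes themselves.

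Of the 14 other 2C genes that passed the filter, 14 were called higher with shRNA1 and 13 with shRNA2. Those called higher with shRNA2 than shRNA1, as *Sp110* was, were *Tdpoz4*, *Abcb5*, *Calcoco2* and *Ddit4l*. *Abcb5*, which encodes a membrane transporter, went from 0.827 ± 0.161 CPM (n = 2) to 6.35 ± 1.16 with shRNA1 and 12.3 ± 1.28 with shRNA2 (n = 3 each), a log2 difference between the shRNAs of 0.96 (SE 0.140, adjusted p = 4.7e-05). *Calcoco2*, an autophagy receptor gene, had log2 fold changes of 0.67 and 1.12, and *Ddit4l*, a gene for an inhibitor of mTOR signalling, of 1.00 and 1.28. Those called lower with shRNA2 were *Pramef25*, *Gm4340*, *Gm21761* and *Ubtfl1*, by 0.62 to 0.86 on the log2 scale. The call of *Ubtfl1* was lost with DESeq2 (adjusted p = 0.0531) and without replicate 1 or 2 of either shRNA (0.104 to 0.169), and that of *Ddit4l* without shRNA1 replicate 3 (0.0649) or shRNA2 replicate 2 (0.119).

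**Figure D4:**
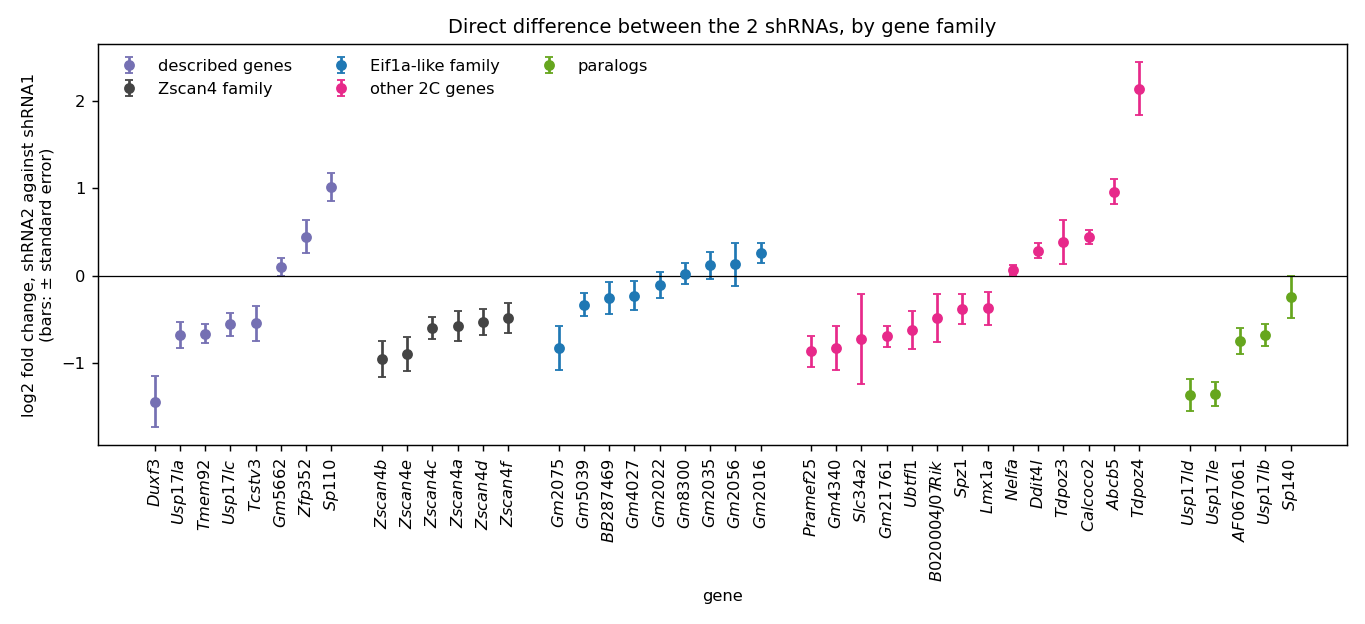
Log2 fold change of shRNA2 against shRNA1 (points, bars ± SE) for the 8 described genes, 6 *Zscan4* genes, 9 *Eif1a*-like genes, 14 other 2C genes and 5 paralogs that passed the filter. The *Zscan4* genes and paralogs all lie below 0, the *Eif1a*-like genes lie around it, and *Sp110*, *Abcb5* and *Tdpoz4* lie highest.

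Paralogs of the 9 genes were checked next, 9 of 13 of which were in the table and 5 of which passed the filter. With shRNA1, 5 of 5 were called higher, and with shRNA2, 4, beside 13.8% and 27.2% of all genes. Without nt-shRNA replicate 2, the calls of *AF067061*, *Sp140* and *Usp17le* with shRNA2 were lost (adjusted p = 0.0596, 0.195 and 0.257), as was that of *Sp140* with shRNA1 (0.106). That of *Sp140* with shRNA2 was also lost with DESeq2 (0.0947), and that of *Usp17le* without shRNA2 replicate 1 (0.0576) or 3 (0.111). *Usp17lb* was at 3.53 ± 0.310 CPM (n = 2) in the control and reached 13.1 ± 1.05 with shRNA1 and 8.19 ± 1.39 with shRNA2 (n = 3 each), with log2 fold changes of 1.89 and 1.21. *AF067061*, a relative of *Tcstv3*, had log2 fold changes of 1.39 and 0.64, and *Sp140*, a relative of *Sp110*, of 1.13 and 0.89. Between the shRNAs 4 were called lower with shRNA2, beside 18.7% of all genes, namely *Usp17lb*, *Usp17ld*, *Usp17le* and *AF067061*. *Sp140* had a difference of -0.24 (SE 0.241, adjusted p = 0.466) where *Sp110* had 1.02. *Usp17ld*, named after its values were seen, was at 2.27 ± 0.654 CPM (n = 2) in the control, 5.05 ± 0.524 with shRNA1 and 1.96 ± 0.172 with shRNA2, so that the order of its means was that of *Duxf3*. *Duxbl1*, *Duxbl2* and *Duxbl3* had 0 counts in every library.

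The nearest tested gene on each side of the 9 genes gave 17 neighbours, since *Tcstv3* had 1 on the left only. Some passed the filter only through the shRNA libraries, such as *Gm7104* (3 and 1 counts with nt-shRNA) and *D13Ertd608e* (7 and 4). Such genes could hardly have been called lower, so the counts are a description. With shRNA1, 13 of 17 were called higher and none lower, beside 13.8% and 17.1% of all genes. With shRNA2, 12 were called higher and 1 lower, beside 27.2% and 28.7% of all genes. Between the shRNAs, 3 were called higher (*Gcc2*, *Gm16026* and *Trim6*) and 5 lower (*AW822073*, *Gm11546*, *Gm21761*, *Usp17lb* and *Usp17ld*), beside 16.9% and 18.7% of all genes. The 1 lower with shRNA2 was *Elavl2* by *Zfp352*, by 0.26 on the log2 scale, a call lost with scaling by library totals (adjusted p = 0.105) and without nt-shRNA replicate 2 (0.177). Those called higher with each shRNA were *Gm8332* and *Gm7104* by *Gm5662*, *Gm16026* and *Sp140* by *Sp110*, *D13Ertd608e* and *Gm21761* by *Tcstv1*, *BC147527* by *Tcstv3*, *Usp17lb* by *Usp17la*, *Trim6* by *Usp17lc*, and *Gm11545* and *Gm11546* by *Tmem92*. Several of these neighbours are paralogs or other 2C genes, and some share sequence with the gene beside them. *Sp140*, *Gm21761*, *Usp17lb* and *Usp17ld* were also counted above, as paralogs or listed 2C genes. Over the 3 comparisons the neighbours had 34 calls, and 25 with 10 counts or more required in all libraries. The calls of *Gm7104* and *Sp140* with shRNA2 were lost without nt-shRNA replicate 2 (adjusted p = 0.0605 and 0.195), that of *Gm11545* with shRNA2 without either control library (0.0788 and 0.0930) or shRNA2 replicate 3 (0.0790) and with DESeq2 (0.0904), and that of *Gm16026* with shRNA1 without nt-shRNA replicate 1 (0.0816).

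By group means, 8 of the 17 neighbours had the order of the gene they lie beside and 9 had another, among them *Gm8332* and *Gm7104* by *Gm5662*, *Sp140* by *Sp110* and both neighbours of *Usp17lc*. Not all of these orders are set by the data, so the tally describes means only. The difference of *Gm5662* between the shRNAs, 0.10 (SE 0.103), turned to -0.02 without shRNA1 replicate 3. The groups of *Tcstv1* overlapped in every comparison. Between the shRNAs *Gm8332* and *Gm7104* were not called, and *Cdkn2b* was called in no comparison. *AW822073*, 5049 bases from *Duxf3* and named after its values were seen, was at 0.563 ± 0.106 CPM (SD, n = 2) in the control, 1.30 ± 0.251 with shRNA1 and 0.382 ± 0.186 with shRNA2 (n = 3 each). It was called higher with shRNA1 (log2 fold change 1.21, SE 0.330, adjusted p = 0.00872) and lower with shRNA2 than shRNA1 (-1.76, SE 0.331, adjusted p = 4.8e-04), and it shares 100-base stretches with *Duxf3*. Its call with shRNA1 was lost without nt-shRNA replicate 2 (adjusted p = 0.0935) and with DESeq2 (adjusted p = 0.0597). *Gcc2* on the other side of *Duxf3* was not called with shRNA1 (0.16, adjusted p = 0.215), although it was with the replicate block (0.0320) and with scaling by library totals (0.0381), and was higher with shRNA2 (0.62, adjusted p = 1.6e-05). *Gm16026*, 291408 bases from *Sp110* and sharing stretches with it, was higher with shRNA2 than shRNA1 by 1.04 (SE 0.252, adjusted p = 0.00349). *Gm11546*, 14346 bases from *Tmem92*, went from 1.66 to 5.27 CPM with shRNA1 and 3.09 CPM with shRNA2, and shRNA2 was lower than shRNA1 by 0.77 on the log2 scale (SE 0.153, adjusted p = 7.7e-04). *Tmem92* shares no stretch with any gene. By *Tcstv1*, itself near the floor, *Gm21761* was higher by 1.51 and 0.81 and *D13Ertd608e* by 2.21 and 2.53. The nearest tested genes of *Zfp352*, *Cdkn2b* and *Elavl2*, lie 907781 and 1025061 bases away and had values of 0.05 and -0.10 on the log2 scale under shRNA1, neither of which passed.

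**Figure D5:**
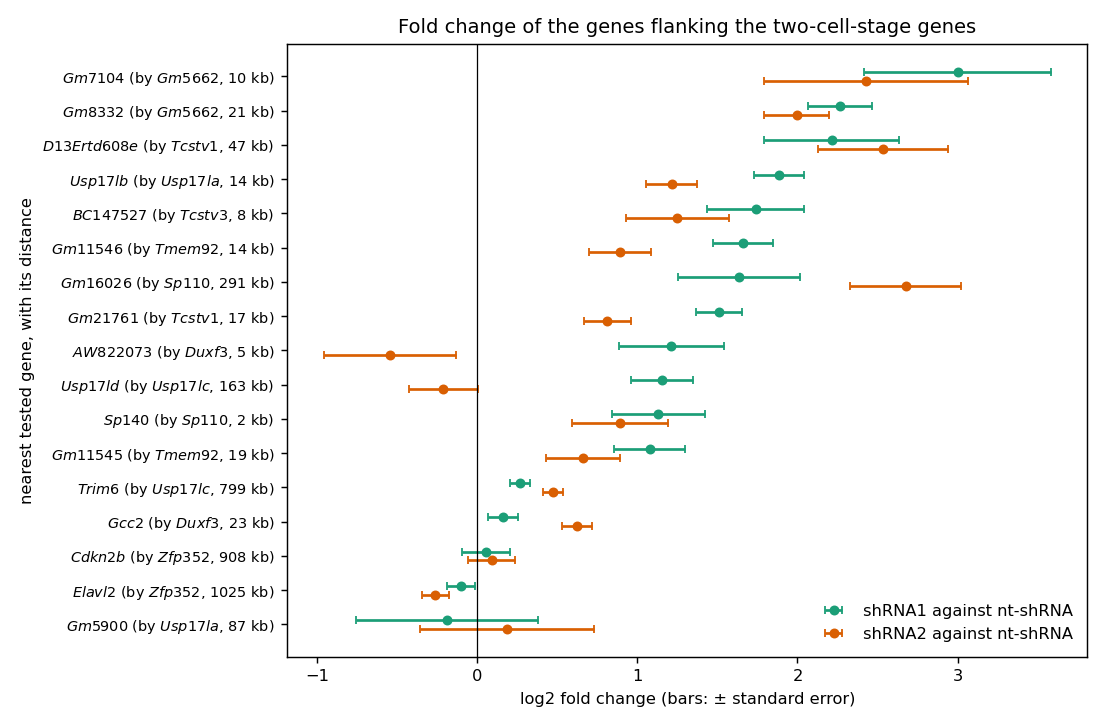
Log2 fold change (points, bars ± SE) of the 17 nearest tested genes on either side of the 9 two-cell-stage genes, with shRNA1 (green) and shRNA2 (orange) against nt-shRNA, each with its distance in kilobases. Neighbours of *Gm5662*, *Tcstv1*, *Tcstv3* and *Tmem92* lie above 0 with both shRNAs, and *AW822073* by *Duxf3* lies on opposite sides of 0.

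*Sp110* responds to interferon in many cells, so 21 interferon-response genes were listed, of which 11 passed the filter. With shRNA1, 4 were called higher and 2 lower, with shRNA2, 5 higher and 3 lower, and between the shRNAs 3 higher and 5 lower. Of all genes, 13.8% and 17.1%, 27.2% and 28.7%, and 16.9% and 18.7% were called higher and lower in these comparisons. The median log2 fold change was 0.44, -0.07 and -0.06. Those called higher with each shRNA were *Xaf1*, *Ddx58*, *Ifit2* and *Mx1*, joined by *Irf9* with shRNA2, and those called lower were *Bst2* and *Stat2*, joined by *Oas1a* with shRNA2. Without nt-shRNA replicate 1, the calls with shRNA1 of *Ddx58* (adjusted p = 0.210), *Ifit2* (0.0646), *Mx1* (0.0592) and *Stat2* (0.121) were lost, and that of *Oas1a* with shRNA2 (0.0773). The calls of *Mx1* and *Ifit2* with shRNA1 were also lost with DESeq2 (0.0906 and 0.0749) and without nt-shRNA replicate 2 (0.128 and 0.127). The call of *Mx1* with shRNA2 was lost in the same settings (0.0596 and 0.0721). With shRNA1 the call of *Ddx58* was also lost without shRNA1 replicate 1 (0.0662) or 2 (0.0512), and that of *Stat2* without nt-shRNA replicate 2 (0.0633), without shRNA1 replicate 2 (0.0799) and with scaling by library totals, where its change of -0.23 became -0.11 (0.206). Under that scaling *Irf9* was called higher with shRNA1 as well (0.0171). *Bst2*, an antiviral membrane protein gene, fell by 0.60 and 1.31 on the log2 scale, while *Xaf1* had log2 fold changes of 0.44 and 0.75 and *Ddx58*, the RNA sensor RIG-I gene, of 0.54 and 1.29. *Ifit1* and *Ifit3*, which interferon induces strongly, were at 0 counts in the control and at a mean of at most 0.0153 CPM elsewhere. *Sp100*, in the same family as *Sp110*, did not pass the filter. The summed level of the list was 353.1 to 369.5 CPM with nt-shRNA, 303.5 to 318.6 CPM with shRNA1 and 262.9 to 284.0 CPM with shRNA2. Most of this sum came from *Bst2*, at a mean of 174.6, 114.8 and 70.3 CPM, and *Stat2*, at 102.1, 87.1 and 75.5 CPM. The part of this list in the *Sp110* values was not tested.

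Markers of other cells moved in part with the groups. Of the 14 pluripotency markers, all of which passed the filter, 7 were called higher and 2 lower with shRNA1, beside 13.8% and 17.1% of all genes. With shRNA2, 9 were called higher and 3 lower, beside 27.2% and 28.7%. Their summed level was 5553 to 5559 CPM with nt-shRNA, 6140 to 6351 with shRNA1 and 7092 to 7221 with shRNA2. *Klf4* had log2 fold changes of 0.65 and 1.31, *Tbx3* of 0.42 and 0.91 and *Nanog* of 0.55 and 0.76. Those called lower were *Pou5f1*, which encodes Oct4 (-0.35 and -0.29), and *Utf1* (-0.63 and -0.86) with each shRNA, and *Fgf4* with shRNA2 (-0.69). With shRNA1 *Fgf4*, at -0.19, was called lower with the replicate block (adjusted p = 0.0142), without a filter (0.0214), in the fit of the compared groups (0.0405) and without shRNA2 replicate 2 or 3 (0.0386 and 0.0229). The higher calls of *Klf2*, *Tdgf1* and *Zfp42* with shRNA1 were lost without nt-shRNA replicate 1 (adjusted p = 0.157, 0.0507 and 0.184), as was that of *Klf2* with shRNA2 (0.270), and that of *Tfcp2l1* with shRNA2 without nt-shRNA replicate 2 (0.127). Scaling by library totals added *Esrrb*, *Sall4* and *Tfcp2l1* to the genes called higher with shRNA1 (0.0394, 0.0378 and 0.0185). Trophoblast markers (4 of 6 tested) summed to 49.3 to 55.0 CPM, 38.7 to 44.2 and 24.9 to 28.9 in the same order. *Krt7*, at a mean of 29.3, 18.8 and 4.88 CPM, was called lower in each comparison and carried most of this fall, while *Eomes* was at 20.3, 20.4 and 20.5 CPM and was not called. *Hand1* was called lower with shRNA2, also against shRNA1 (lost without shRNA1 replicate 3, adjusted p = 0.0651), *Elf5* (1.00 and 0.75) was not called, and *Prl3d1* was at 0. Primitive endoderm markers (5 of 6) summed to 44.5 to 45.9, 42.6 to 48.8 and 35.5 to 41.4 CPM, with *Gata6* lower with shRNA2 and neither *Gata4* nor *Sox17* called against nt-shRNA. With shRNA2 *Gata4* was called lower with the replicate block (adjusted p = 0.0357) and without shRNA1 replicate 3 (0.0420) or shRNA2 replicate 1 (0.0277), and *Sox17* without shRNA2 replicate 3 (0.0194). Fibroblast markers (3 of 7) summed to 4.599 to 5.023, 6.515 to 7.344 and 6.278 to 7.573 CPM, both shRNA groups above the control. *Col1a2* was called higher with each shRNA, with shRNA1 not without nt-shRNA replicate 1 (adjusted p = 0.148). *Col1a1* and *Thy1* were not called, but with scaling by library totals *Col1a1* was called higher with each shRNA (0.0361 and 0.0294) and *Thy1* with shRNA1 (0.0475). Macrophage markers (1 of 6) summed to 26.7 to 28.6, 10.96 to 13.23 and 8.629 to 10.01 CPM, nearly all from *Cd68*, which was called lower, and *Ptprc* and *Adgre1* were at 0 in every library. The part of these markers in the values of the 9 genes was not tested.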

How the data were processed

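Poly(A) RNA of 8 R1 mESC libraries was sequenced as 100 bp paired reads. The authors aligned reads with STAR to mm10 (GRCm38) and deposited fragment counts per gene from featureCounts 1.6.2 on GENCODE M24 exons, without strand and without reads of several alignments, so near-identical and overlapping genes are uncertain. Symbols were matched by identifier to GENCODE M21 (55144 of 55385 genes).

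The deposited counts were fitted in edgeR 4.0.16 under R 4.3.3, with DESeq2 1.42.0 as an alternative. Of the 55385 genes, 17445 passed filterByExpr (minimum count 10). TMM normalisation was followed by glmQLFTest in 1 fit of all 8 libraries, where each group had its own coefficient and replicates formed no block. A gene was called when its p, adjusted by Benjamini-Hochberg over all genes, was under 0.05. Standard errors come from the F statistic, and levels are TMM-normalised CPM. Likeness used log2 CPM with a prior count of 2. On simulated counts for shRNA2 against nt-shRNA (17093 genes), 64 of 64 2-fold changes were recovered at a mean of 100 or more counts, 8 of 18 at 20 to 100 and 2 of 17 below 20, with 4 false among 133 calls. The criterion first set, recovery of 80% of 2-fold changes at any count, was not met (74 of 99), and it was then replaced by one at 100 or more counts.

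Members and lists were chosen with earlier results of these data known. The genes named are the 9 members, the 3 in every list that had the smallest adjusted p under shRNA2, neighbours called with each shRNA, the 10 nearest in likeness and *Eftud2*. Others are named where a count of 5 or fewer is given. Lists were the *Zscan4*, *Eif1a*-like and other 2C genes, paralogs, interferon response and cell markers. Alternatives are given in the closing section. Promoters come from RefSeq (GRCm38.p6), and shared 100-base stretches from GENCODE M21 transcripts. Splicing was not analysed here, and 2 further genes are not reported here.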

Additional observations from a re-analysis of the deposited data

Results flagged for a closer look

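Both shRNAs were compared with the same control. Of the 86 other genes tested in the lists, among the neighbours or by name, 48 had an effect that differed between the shRNAs. The test was that of shRNA2 against shRNA1 in edgeR (adjusted p under 0.05), which called 35.6% of all genes tested. The value after each gene is the log2 fold change of shRNA2 against shRNA1. Among the listed 2C genes, the effect was more positive with shRNA2 for *Tdpoz4* (2.14), *Abcb5* (0.96), *Calcoco2* (0.45) and *Ddit4l* (0.29). It was less positive with shRNA2 for *Zscan4b* (-0.95), *Zscan4e* (-0.90), *Pramef25* (-0.86), *Gm2075* (-0.83), *Gm4340* (-0.83), *Gm21761* (-0.69), *Ubtfl1* (-0.62), *Zscan4c* (-0.60), *Zscan4a* (-0.57), *Zscan4d* (-0.53) and *Zscan4f* (-0.49). Among paralogs and neighbours of the described genes, the value was above 0 for *Gm16026* (1.04), *Gcc2* (0.47) and *Trim6* (0.20) and below 0 for *AW822073* (-1.76), *Usp17ld* (-1.37), *Usp17le* (-1.35), *Gm11546* (-0.77), *AF067061* (-0.75) and *Usp17lb* (-0.67). Among the interferon and marker genes, it was above 0 for *Ddx58* (0.74), *Klf4* (0.66), *Tbx3* (0.50), *Sall4* (0.46), *Zfp42* (0.34), *Esrrb* (0.33), *Xaf1* (0.31), *Irf9* (0.24), *Nanog* (0.21) and *Tfcp2l1* (0.18) and below 0 for *Krt7* (-1.95), *Hand1* (-1.22), *Ifih1* (-1.11), *Sox17* (-0.87), *Dppa3* (-0.79), *Irf7* (-0.77), *Bst2* (-0.71), *Oas1a* (-0.53), *Fgf4* (-0.50), *Gata6* (-0.47), *Cd68* (-0.37), *Gata4* (-0.32), *Utf1* (-0.23) and *Stat2* (-0.21). Of the 48, these 18 lost the call under at least 1 alternative: *Cd68*, *Ddit4l*, *Gata4*, *Gata6*, *Gm2075*, *Gm4340*, *Hand1*, *Ifih1*, *Irf7*, *Irf9*, *Sox17*, *Stat2*, *Tfcp2l1*, *Ubtfl1*, *Utf1*, *Zscan4a*, *Zscan4d* and *Zscan4f*. The 9 described genes are left out of this count, since they had been chosen on the same contrast. Groups of 2 or 3 libraries are too small for a test of single outlying libraries.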

How the results depend on the processing

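Each result was recomputed with the size factors of DESeq2 in edgeR, with the Wald test of DESeq2, with scaling by library totals, without a filter or with a stricter one (10 counts or more in all libraries), in fits of the compared groups alone, with replicate numbers as a block, and without each library in turn. No described gene changed direction where it was called. The genes called with shRNA1 fell from 5388 to 2948 without nt-shRNA replicate 1, and over all left-out libraries ran from 2948 to 5903. With 1 control library left, that library is assumed to vary like the other groups. The median log2 fold change of the described genes with shRNA2, 1.19, ran from 1.04 (without nt-shRNA replicate 2) to 1.41 (without nt-shRNA replicate 1) over the left-out libraries, and that with shRNA1, 1.76, was 1.88 under the stricter filter, which 7 genes passed. Without nt-shRNA replicate 2 or shRNA2 replicate 3, 6 of the 8 genes were called higher with shRNA2. With DESeq2 or without nt-shRNA replicate 2, 7 were called higher with shRNA1. The 15 calls of listed 2C genes between the shRNAs ran from 9 (without shRNA2 replicate 2) to 17 (without shRNA1 replicate 3), and the causes of these shifts were not tested. Listed 2C genes called higher with shRNA2 were 25 without nt-shRNA replicate 2, and DESeq2 called 28 with shRNA1 and 27 with shRNA2. Scaling by library totals put the median over all genes at 0.11 and 0.09 and the share of higher calls from 44.7% to 70.5% with shRNA1 and from 48.7% to 58.9% with shRNA2. Of the 86 other genes tested in the lists, among the neighbours or by name, 12, 14 and 18 lost and 9, 5 and 8 gained a call under some alternative in the comparisons of shRNA1 with nt-shRNA, shRNA2 with nt-shRNA and shRNA2 with shRNA1. Same-numbered replicates did not deviate together (correlations across genes from -0.03 to 0.07). Blocking on replicate number gave the replicate block counts of 2694 genes higher and 3324 lower with shRNA1, 4898 and 5136 with shRNA2, and 3116 and 3402 between the shRNAs. In simulated data, 2 of 17 2-fold changes were recovered below 20 counts and 8 of 18 at 20 to 100. By its mean count *Duxf3* lies in the lower class and *Zfp352*, *Tcstv3* and *Sp110* in the other. The simulation had 133 calls with shRNA2 where the data had 9758, so its rates of recovery need not hold for the data. Low counts limit *Duxf3* and also *Tcstv1*, which did not pass the filter.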
